A study of Mus musculus with 6 samples.

Results

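Integrins are cell surface receptors made of an alpha and a beta chain, and the 9 genes described here encode the leukocyte integrin chains Itgal, Itgam, Itgax, Itga4, Itgb1, Itgb2 and Itgb7, the integrin ligand Icam1 and the hyaluronan receptor Cd44. The genes were chosen by name, with earlier results of these data known, and all 9 were found among the 23850 gene entries of the tables. Levels were compared between 3 libraries of germinal centre B cells treated with CHIR99021, an inhibitor of the GSK3 kinases, and 3 libraries treated with its solvent DMSO. The cells came from wild-type C57BL/6J mice: naive follicular B cells spent 4 days on CD40L-bearing feeder cells in IL-4 (1 ng/ml), and treatment followed for 36 h on the same kind of feeder in IL-21 (10 ng/ml). How the B cells were purified afterwards is not stated in the labels. The dose of CHIR99021 was 3 uM, and the labels print the same figure beside DMSO. All 6 libraries therefore share the strain, the genotype, the cytokines and the feeder cells, and differ in the added compound. The series calls the design a biological triplicate, and nothing in the labels says whether a replicate was a separate mouse, so p-values measure the spread between these libraries.

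In B cells, the alpha chain of Itgal pairs with the beta chain of Itgb2 to form LFA-1, which binds ICAM-1 on the partner cell during contact with T cells and with follicular dendritic cells. The chain of Itga4 pairs with that of Itgb1 to form VLA-4, a receptor for VCAM-1 and fibronectin, or with that of Itgb7 to form the gut homing receptor that binds MAdCAM-1. Integrins bind their ligands firmly only after talin and kindlin attach to the beta chain from inside the cell, a step driven by the small GTPase RAP1.

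Levels are FPKM, that is fragments scaled for transcript length and library total, so levels of different genes may be set side by side. Libraries of the same group correlated at 0.970 to 0.980 on the log2 scale over all tested genes, against 0.942 to 0.967 between groups, and no pair shared more than 0.228% of its values. The confidence limits in the tables corresponded to 4950000 to 7050000 fragments per CHIR99021 library and 4440000 to 6150000 per DMSO library, summed over genes. The 6 fixed B cell markers summed to 1196.7 to 1460.1 FPKM in CHIR99021 libraries and 2354.8 to 3250.9 FPKM in DMSO libraries, and all 6 were called lower. The 6 germinal centre markers summed to 116.5 to 124.8 FPKM in CHIR99021 libraries and 128.7 to 134.8 FPKM in DMSO libraries. The 6 plasma cell markers summed to 470.7 to 588.5 FPKM in CHIR99021 libraries and 489.0 to 767.4 FPKM in DMSO libraries. Of the 5 of these that were tested, 2 were called higher, Irf4 (log2 change 1.40, adjusted p = 0.000431, limma) and Prdm1 (1.25, adjusted p = 0.00347), and 0 lower. Xbp1 (0.24), Sdc1 (-0.23) and Igj (-0.62) were not called. Igj, the most abundant of the list, averaged 289.3 FPKM with CHIR99021 and 451.8 FPKM with DMSO. Tnfrsf17, which was not tested, averaged 0.115 FPKM with CHIR99021 and 0.673 FPKM with DMSO. The part of these shifts in the changes described below was not tested. Transcripts of fibroblasts, listed for the feeder cells, were detected: 8 fibroblast markers summed to 271.6, 108.4 and 64.0 FPKM in CHIR99021 replicates 1, 2 and 3, and to 353.4, 126.5 and 84.7 FPKM in DMSO replicates 1, 2 and 3. The sum was thus highest in replicate 1 and lowest in replicate 3 of both groups. Col1a1, Col1a2, Col3a1, Fn1 and Sparc each ran in this order in both groups, while Thy1, Lum and Pdgfrb did not. Thy1 was highest in replicate 3 of both groups. Lum, which was not tested, was higher in every CHIR99021 library than in any DMSO library. Only Thy1 of these markers was called, lower in CHIR99021.

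The Itgam, Itgb7 and Icam1 promoters are shown because Itgam and Itgb7 had the largest falls described below and Icam1 held a motif of interest. RefSeq promoter windows (build GRCm38.p6, 250 bases before to 50 after the start) were held for 7 of the 9 genes, and Itgal and Itgb2 had none in the table. Capitals mark matches to CTTTGA, the core bound by TCF and LEF factors, or to GGANTTTCC, a form of the kappaB site, each searched on both strands, and no matches overlapped.
Itgam (chr7:128062390-128062689, plus strand): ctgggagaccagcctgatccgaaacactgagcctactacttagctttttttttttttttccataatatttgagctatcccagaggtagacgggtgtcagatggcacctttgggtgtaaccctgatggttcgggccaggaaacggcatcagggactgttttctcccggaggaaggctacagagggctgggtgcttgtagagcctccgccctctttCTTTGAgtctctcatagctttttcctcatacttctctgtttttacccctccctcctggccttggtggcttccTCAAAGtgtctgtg
Itgb7 (chr15:102231886-102232185, minus strand): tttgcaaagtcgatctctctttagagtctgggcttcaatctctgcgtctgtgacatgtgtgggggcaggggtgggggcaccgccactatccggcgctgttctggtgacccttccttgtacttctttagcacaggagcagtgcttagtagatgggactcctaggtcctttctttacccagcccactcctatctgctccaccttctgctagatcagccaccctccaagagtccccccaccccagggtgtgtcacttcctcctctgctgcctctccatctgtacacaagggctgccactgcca
Icam1 (chr9:21015690-21015989, plus strand): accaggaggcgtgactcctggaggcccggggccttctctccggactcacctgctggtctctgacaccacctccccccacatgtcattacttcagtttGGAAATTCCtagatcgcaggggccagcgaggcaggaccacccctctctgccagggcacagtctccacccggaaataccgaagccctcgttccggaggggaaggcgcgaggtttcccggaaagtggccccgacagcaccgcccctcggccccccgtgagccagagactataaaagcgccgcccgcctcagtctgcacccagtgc
The Itgam window held the TCF and LEF core at 2 places, once on each strand, and no other of the 7 windows held it, while 16.0% of 32851 promoter windows of this length did. The Icam1 window held the kappaB form at 1 place, as GGAAATTCC on the strand of the gene, and no other of the 7 did, while 1.25% of all windows did. A match describes letters in the window and not a bound site.

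With CHIR99021, 5 of the 8 genes that could be tested were called lower and 0 higher: Itgam and Itgb7 by a log2 change of -1.41 each with a pseudocount of 1, Itgb2 by -0.54, and Cd44 and Icam1 by less. The calls come from limma's test at an adjusted p under 0.05 over the 10096 genes that averaged at least 1 FPKM, and at an unadjusted p under 0.05 0 of the 8 were higher too. Of the 10096 genes, 21.4% were called, 13.3% lower and 8.13% higher. Itgax lay under the limit on level and was not tested. The same 5 genes were those whose libraries did not overlap between groups, as held for 40.1% of all tested genes in either direction and for 23.1% in the lower direction. The median log2 change of the 8 was -0.36, against -0.04 over all tested genes. The titles give both groups the same replicate numbers, and with the number as a block 5 genes were called lower and 1, Itga4, higher, where 42.8% of all genes were called, 24.4% lower and 18.4% higher. Without DMSO replicate 3, CHIR99021 replicate 1 or CHIR99021 replicate 2, 3 genes were called lower, and 2 were without CHIR99021 replicate 3 or without replicate 1 of both groups. Lower calls over all tested genes dropped too, from 1343 to 813, 1029, 988, 751 and 745 in these fits, in the order named. The RNA comes from bulk cultures, so fewer cells of a type and less RNA per cell cannot be told apart.

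**Figure D1:**
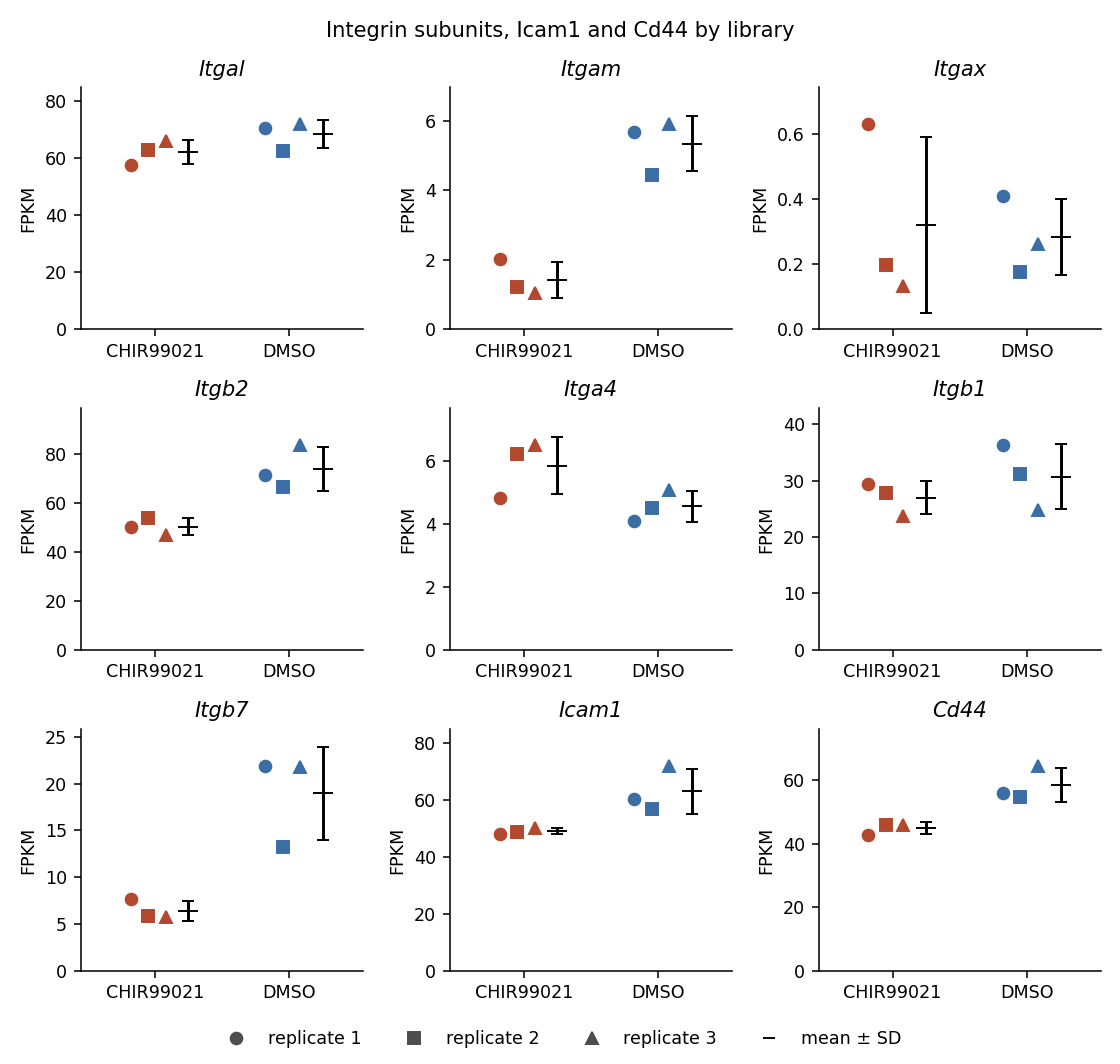
FPKM of each gene in the 6 libraries, CHIR99021 left of DMSO, with the symbol giving the replicate number and the black bar the mean ± SD (n = 3). The groups do not overlap for Itgam, Itgb2, Itgb7, Icam1 and Cd44, while they do for Itgal, Itgax, Itga4 and Itgb1.

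Of the alpha chains that pair with the Itgb2 chain, Itgal was the most abundant and Itgam was called lower. Itgam (chromosome 7, 128062640 to 128118491 on mm10) encodes CD11b, which with CD18 forms the complement receptor Mac-1 of myeloid cells and of some B cells. It had 2.01, 1.20 and 1.03 FPKM in CHIR99021 libraries, against 5.68, 4.43 and 5.90 FPKM in DMSO libraries. Every DMSO library was above every CHIR99021 library, by more than the confidence limits of the single libraries: the highest upper limit with CHIR99021 was 2.44 FPKM and the lowest lower limit with DMSO was 3.76 FPKM. The means were 1.42 ± 0.525 FPKM with CHIR99021 and 5.34 ± 0.791 FPKM with DMSO (SD, n = 3 each), which is 3.77-fold lower with CHIR99021. The log2 change was -1.41 ± 0.19 (SE; adjusted p = 0.00264, limma), lower in 3 of 3 replicate numbers, and 0.882% of tested genes had a more negative one. The size depends on the pseudocount, at -1.89 for Itgam and -1.52 for Itgb7 with 0.1, and at -0.69 for Itgam and -1.05 for Itgb7 with 5. These values rest on few fragments, 90, 42 and 32 in the CHIR99021 libraries and 150, 175 and 199 in the DMSO libraries, as read from the confidence limits. In the GENCODE annotation, exons of Gm49368 on the same strand overlap those of Itgam, so reads there could belong to either.

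CD11b is foremost a myeloid marker, so the level of such cells' markers is given beside it. Of 8 macrophage and monocyte markers, Cd14 and Fcgr1 were listed at 0 in all 6 libraries, and Csf1r, Mertk and Emr1, the F4/80 gene, stayed below 1 FPKM in every library. Lyz2 had 1.86, 0.13 and 1.36 FPKM in CHIR99021 libraries and 2.22, 1.39 and 0.675 FPKM in DMSO libraries. It was not called (log2 change -0.25, adjusted p = 0.696, limma). Cd68, called lower, and Cybb, which B cells also express, made up most of the list's sum of 74.0 to 75.9 FPKM in CHIR99021 libraries and 74.5 to 89.6 FPKM in DMSO libraries. The 5 neutrophil markers found summed to 3.16, 2.64 and 0.0999 FPKM in CHIR99021 libraries and 0.134, 0.692 and 0.763 FPKM in DMSO libraries, with S100a8 at 1.68, 2.08 and 0 FPKM with CHIR99021 and 0 in every DMSO library. Of 6 NK cell markers, Ncr1, Klrb1c and Gzma were listed at 0 throughout, and the list summed to 1.88 to 3.03 FPKM with CHIR99021 and 1.78 to 3.93 FPKM with DMSO. Prf1 made up nearly all of that sum. The 7 T cell markers found summed to 12.3 to 14.1 FPKM with CHIR99021 and 13.9 to 18.8 FPKM with DMSO, mostly Lck, and Cd3e was listed at 0 throughout. That list includes Cd40lg, although the feeder cells bear CD40L. Cd40lg had 1.88, 0.357 and 0.138 FPKM with CHIR99021 and 2.37, 0.55 and 0.382 FPKM with DMSO. Which cells its RNA came from was not tested. Cd68 ran in the same direction as Itgam, at 6.43, 16.6 and 11.4 FPKM in CHIR99021 libraries and 21.2, 19.3 and 26.2 FPKM in DMSO libraries (adjusted p = 0.0483, limma), and its part in the result was not tested.

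Itgal (chromosome 7, 127296260 to 127335137) encodes CD11a, the alpha chain of LFA-1. It had 57.6, 62.8 and 66.1 FPKM in CHIR99021 libraries and 70.8, 62.7 and 72.0 FPKM in DMSO libraries. The groups overlapped, since replicate 2 had nearly the same level in both. Itgal did not pass the test, with a log2 change of -0.14 and a 95% interval from -0.35 to 0.07 (adjusted p = 0.329, limma). Itgax (chromosome 7, 128129568 to 128150657), which begins 11.1 kilobases beyond the end of Itgam, encodes CD11c, a marker of dendritic cells that some activated B cells also carry. It had 0.631, 0.198 and 0.132 FPKM in CHIR99021 libraries and 0.409, 0.176 and 0.263 FPKM in DMSO libraries, from 4 to 28 fragments per library. CHIR99021 replicate 1 was the highest of the 6 and CHIR99021 replicate 3 the lowest, so the groups overlapped fully, and no difference could be detected at this depth. Without the limit on level, its log2 change was 0.03 (adjusted p = 0.941, limma). Of the 6 dendritic cell markers, Clec9a was listed at 0 in all libraries, and Xcr1 and Siglech were below 1 FPKM throughout. Batf3 reached 1.93 FPKM in CHIR99021 replicate 2 and was below 1 FPKM in the other libraries. Zbtb46 averaged 2.48 FPKM with CHIR99021 and 3.64 FPKM with DMSO and was not called (adjusted p = 0.085, limma). Flt3, the most abundant of that list, had 14.2 to 16.5 FPKM with CHIR99021 and 34.1 to 42.5 FPKM with DMSO. It was called lower (log2 change -1.32, adjusted p = 0.000526, limma).

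Itgb2 (chromosome 10, 77530348 to 77565674) encodes CD18, the beta chain shared by CD11a, CD11b and CD11c. It had 50.3, 53.7 and 46.8 FPKM in CHIR99021 libraries and 71.4, 66.5 and 83.6 FPKM in DMSO libraries. The highest CHIR99021 library was below the lowest DMSO library, and DMSO replicate 3 was the highest of all. Itgb2 averaged 50.3 ± 3.46 FPKM with CHIR99021 and 73.9 ± 8.81 FPKM with DMSO, and its log2 change was -0.54 ± 0.11 (SE; adjusted p = 0.0107, limma), lower in 3 of 3 replicate numbers. The call was lost without CHIR99021 replicate 3 (log2 change -0.49, adjusted p = 0.0521) and without replicate 1 of both groups (-0.56, adjusted p = 0.0581).

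The ratio of Itgal to Itgb2 within a library does not depend on the scaling between libraries. Itgal over Itgb2 was 1.14, 1.17 and 1.41 in CHIR99021 libraries and 0.991, 0.942 and 0.861 in DMSO libraries. Every CHIR99021 library thus had more Itgal than Itgb2 per length. DMSO replicates 2 and 3 had less, and in DMSO replicate 1 the levels were nearly equal, at 70.8 and 71.4 FPKM. The ratio was 1.33-fold higher with CHIR99021 (exact two-sided permutation p = 0.1, the smallest that 3 against 3 libraries allow, and also 0.1 when adjusted over the 3 ratios examined), in 3 of 3 replicate numbers.

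Of the alpha4 integrin chains, Itgb7 fell, Itga4 was higher by a call that needs the replicate block, and Itgb1 was not called. Itgb7 (chromosome 15, 102215995 to 102231935), which confers binding to gut endothelium, had 7.66, 5.83 and 5.72 FPKM in CHIR99021 libraries and 21.9, 13.2 and 21.8 FPKM in DMSO libraries. The 3 CHIR99021 libraries lay close together and below all DMSO libraries, of which replicate 2 was the lowest. Itgb7 averaged 6.40 ± 1.09 FPKM with CHIR99021 and 18.9 ± 4.99 FPKM with DMSO, 2.96-fold lower with CHIR99021. Its log2 change was -1.41 ± 0.21 (SE; adjusted p = 0.00347, limma), lower in 3 of 3 replicate numbers, and 0.891% of tested genes had a more negative one. Itgam and Itgb7 were the genes of the set that passed the test with a log2 change beyond -1, as 2.75% of all tested genes did.

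Itga4 (chromosome 2, 79255426 to 79333114) encodes CD49d, the alpha chain shared by VLA-4 and the alpha4 beta7 receptor. It had 4.82, 6.21 and 6.50 FPKM in CHIR99021 libraries and 4.09, 4.50 and 5.08 FPKM in DMSO libraries. CHIR99021 replicate 1 lay below DMSO replicate 3, so the groups overlapped, but within each replicate number CHIR99021 was higher, with log2 differences of 0.19, 0.39 and 0.30. The log2 change of 0.30 had a 95% interval from -0.04 to 0.63 and did not pass the test (adjusted p = 0.189, limma), while with the replicate number as a block it did (adjusted p = 0.0396). Exons of Cerkl on the other strand overlap those of Itga4 in the GENCODE annotation. Cerkl had 0.250 to 0.909 FPKM with CHIR99021 and 0.423 to 1.26 FPKM with DMSO. The kit was stranded, but no source used here gives the strand setting of the counting.

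Itgb1 (chromosome 8, 128685654 to 128733579) encodes CD29, the beta chain of VLA-4 and of many integrins of other cell types. It had 29.4, 27.8 and 23.7 FPKM in CHIR99021 libraries and 36.3, 31.1 and 24.7 FPKM in DMSO libraries. The groups overlapped widely, and in both of them replicate 1 was the highest and replicate 3 the lowest, the order of the fibroblast marker sums. Itgb1 was not called (log2 change -0.17, 95% interval -0.52 to 0.18, adjusted p = 0.471, limma), nor with the replicate block (adjusted p = 0.0958). Within replicate numbers it was lower with CHIR99021 in 3 of 3, with log2 differences of -0.30, -0.16 and -0.06. Of the 5 other integrin chains tested, 2 ran in the same order in both groups, Itga3 and Itga5, which are named because of it, and Itgb3, Itgav and Itga6 did not. Over all tested genes, 5.08% ran in this order. Itga3 had 3.86, 1.75 and 0.717 FPKM with CHIR99021 and 5.11, 2.74 and 0.851 FPKM with DMSO, and Itga5 had 2.17, 0.882 and 0.341 FPKM with CHIR99021 and 1.92, 0.833 and 0.484 FPKM with DMSO. The part of fibroblast RNA in the level of Itgb1 was not tested.

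**Figure D2:**
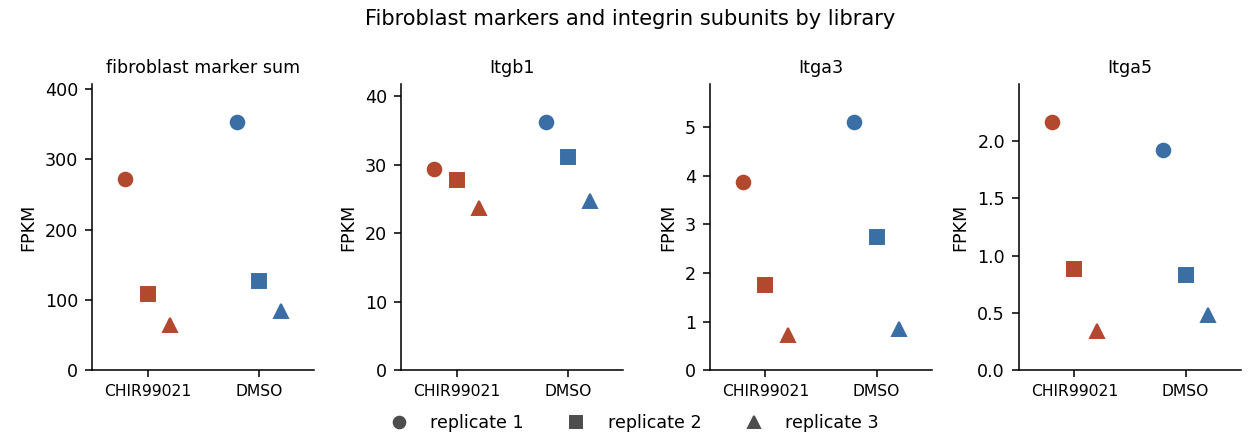
Summed FPKM of 8 fibroblast markers and FPKM of Itgb1, Itga3 and Itga5 in each library, CHIR99021 left of DMSO, with the symbol giving the replicate number. In all 4 panels replicate 1 is the highest and replicate 3 the lowest of each group.

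The RNA balance between the partners of the alpha4 chain was read from the ratio of Itgb7 to Itgb1. It was 0.260, 0.210 and 0.242 in CHIR99021 libraries and 0.602, 0.424 and 0.884 in DMSO libraries, so that Itgb1 exceeded Itgb7 in all 6 libraries and by more with CHIR99021. The ratio was 2.57-fold lower with CHIR99021 (exact two-sided permutation p = 0.1, the smallest possible, adjusted p = 0.1), in 3 of 3 replicate numbers, and the fibroblast marker sums differed between replicate numbers as given above. Itga4 over Itgal was 0.0837, 0.0989 and 0.0984 in CHIR99021 libraries and 0.0577, 0.0718 and 0.0706 in DMSO libraries. Itga4 RNA therefore stayed well below Itgal RNA in every library, and the ratio was 1.41-fold higher with CHIR99021 (exact two-sided permutation p = 0.1, adjusted p = 0.1). These are ratios of RNA, and the data hold no levels of the protein chains.

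**Figure D3:**
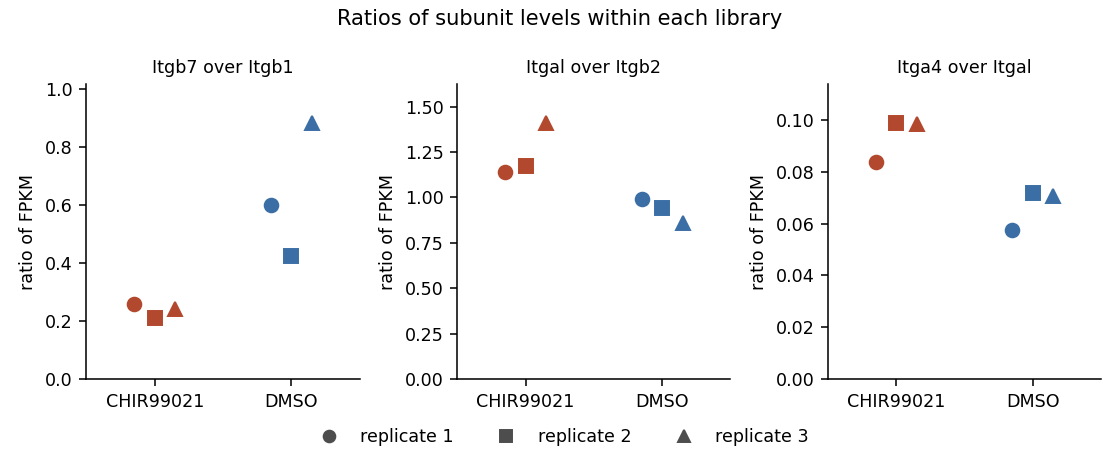
Ratio of FPKM of Itgb7 to Itgb1, Itgal to Itgb2 and Itga4 to Itgal in each library, CHIR99021 left of DMSO, with the symbol giving the replicate number. The groups do not overlap in any panel; Itgb7 over Itgb1 is 0.210 to 0.260 with CHIR99021 and 0.424 to 0.884 with DMSO.

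Icam1 (chromosome 9, 21015960 to 21028796) encodes CD54, the ligand of LFA-1 and Mac-1, whose transcription is induced by NF-kappaB. It had 48.2, 48.8 and 50.2 FPKM in CHIR99021 libraries and 60.4, 56.9 and 72.1 FPKM in DMSO libraries. The CHIR99021 libraries agreed closely and lay below all DMSO libraries, which spread more. The log2 change was -0.35 ± 0.10 (SE; adjusted p = 0.0440, limma), at 49.1 ± 1.00 FPKM with CHIR99021 and 63.2 ± 7.97 FPKM with DMSO. Exons of Gm47079 on the other strand overlap those of Icam1. The call of Icam1 was the least firm of the 5: leaving out any library other than DMSO replicate 2 ended it (adjusted p = 0.0726 without DMSO replicate 1, 0.110 without DMSO replicate 3, and 0.106, 0.108 and 0.117 without CHIR99021 replicates 1, 2 and 3). It was also lost under upper-quartile and quantile scaling (adjusted p = 0.0666 and 0.0555), without the limit on level (0.0680) and without a variance trend (0.0745), while with the replicate block the adjusted p was 0.00879.

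Cd44 (chromosome 2, 102811142 to 102901665) encodes the receptor for hyaluronan, a marker of activated lymphocytes that has been described as a target of beta-catenin. It had 42.8, 46.1 and 46.1 FPKM in CHIR99021 libraries and 56.0, 54.8 and 64.6 FPKM in DMSO libraries, again without overlap. The log2 change was -0.37 ± 0.09 (SE; adjusted p = 0.0258, limma), lower in 3 of 3 replicate numbers. The call was lost without DMSO replicate 3 (adjusted p = 0.0804), without CHIR99021 replicate 1, 2 or 3 (0.0788, 0.0611 and 0.0789) and without replicate 1 of both groups (0.103). Gene-level FPKM do not separate the standard form of CD44 from its variant exon forms.

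**Figure D4:**
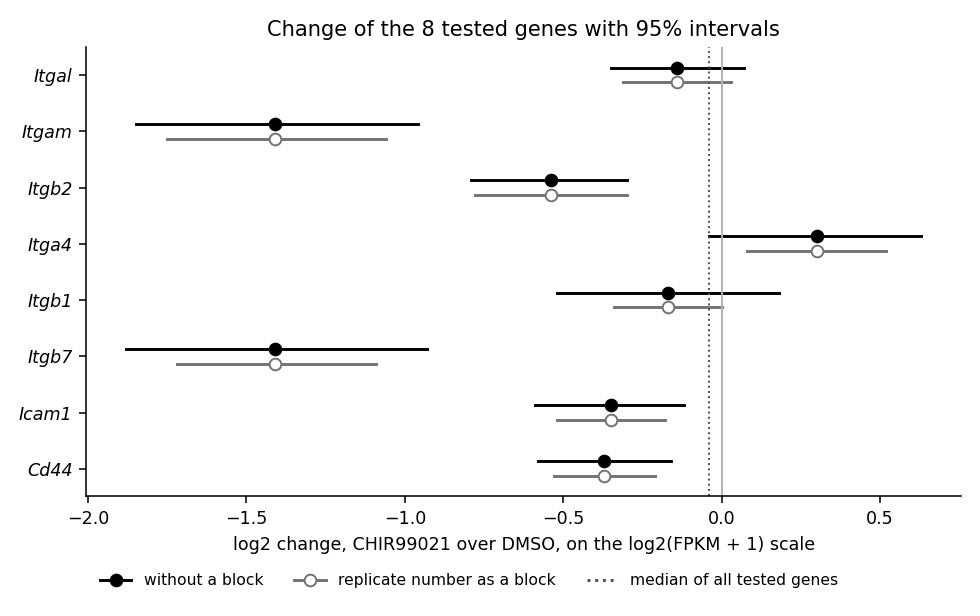
Log2 change of the 8 tested genes, CHIR99021 over DMSO, with 95% intervals from limma without a block (filled) and with the replicate number as a block (open), and the median of all tested genes dotted at -0.04. The intervals of Itgam, Itgb7, Itgb2, Icam1 and Cd44 lie below 0 in both fits, and that of Itga4 lies above 0 with the block.

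In order of level, CHIR99021 libraries had Itgal first at 62.2 FPKM, then Itgb2 and Icam1 at 50.3 and 49.1 FPKM, whose libraries overlapped, and then Cd44 at 45.0 and Itgb1 at 27.0 FPKM. Below them came Itgb7 and Itga4 at 6.40 and 5.85 FPKM, also overlapping, then Itgam at 1.42 and Itgax at 0.320 FPKM. DMSO libraries had Itgb2, Itgal, Icam1 and Cd44 at 73.9, 68.5, 63.2 and 58.5 FPKM, each overlapping the next. Itgb1 at 30.7 and Itgb7 at 18.9 FPKM followed apart from their neighbours, then Itgam and Itga4 at 5.34 and 4.56 FPKM, which overlapped, and Itgax at 0.282 FPKM. Itgb7 thus stood clear above Itga4 in DMSO libraries and level with it in CHIR99021 libraries, while Itgam was level with Itga4 in DMSO libraries and below it in CHIR99021 libraries.

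The other genes of integrin and CD44 adhesion were read from 4 lists by role. Like the members, the lists were chosen with earlier results of these data known, so their counts are no independent test. Of 71 tested genes on the 4 lists, 29 fell and 6 rose, where 13.3% of all tested genes fell and 8.13% rose. The median log2 change of the 71 was -0.29. Most of the falls lay in the machinery inside the cell that switches integrins on and ties them to actin, where 20 of 36 tested genes fell and 2 rose (median -0.38). Rasgrp2, the exchange factor that activates RAP1 in lymphocytes and platelets, had 11.2 ± 1.31 FPKM with CHIR99021 and 28.5 ± 0.904 FPKM with DMSO (log2 change -1.28, adjusted p = 0.000487, limma). Fermt3, the kindlin of blood cells, had 65.4 ± 2.96 FPKM with CHIR99021 and 111.2 ± 7.05 FPKM with DMSO (-0.76, adjusted p = 0.00111). Kindlins bind the cytoplasmic tails of integrin beta chains. Cytip, a partner of cytohesin that restrains LFA-1 adhesion, had 21.7 ± 2.60 FPKM with CHIR99021 and 59.7 ± 8.55 FPKM with DMSO (-1.42, adjusted p = 0.000583). Flna, filamin A, which links beta chains to actin and competes with talin, had 32.3 ± 2.55 FPKM with CHIR99021 and 77.7 ± 8.16 FPKM with DMSO (-1.24, adjusted p = 0.000519). The genes that fell thus included some known to aid integrin adhesion and some known to restrain it. Named after their values were seen, talin, Tln1, fell (-0.60, adjusted p = 0.0166), and of the RAP1 genes Rap1a rose (0.31, adjusted p = 0.0388) and Rap1b fell (-0.36, adjusted p = 0.0479).

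Among 15 tested other adhesion receptors, 4 fell and 1 rose (median -0.10), where 13.3% of all tested genes fell and 8.13% rose. With the replicate block 5 fell and 3 rose, where 24.4% of all tested genes fell and 18.4% rose. Pecam1, the homophilic receptor CD31, had 6.40 ± 0.712 FPKM with CHIR99021 and 19.5 ± 3.40 FPKM with DMSO (log2 change -1.46, adjusted p = 0.00085, limma), and Icam2, a further LFA-1 ligand, had 13.9 ± 1.70 FPKM with CHIR99021 and 23.6 ± 2.93 FPKM with DMSO (-0.72, adjusted p = 0.00747). The gene that rose was Ninj1, an adhesion protein that also ruptures dying cells, at 11.8 ± 0.309 FPKM with CHIR99021 and 5.98 ± 0.406 FPKM with DMSO (0.87, adjusted p = 0.00147). Among 15 tested CD44 partners, 5 fell and 3 rose without the block (median -0.25), to be read against the same 13.3% and 8.13%. With the block 7 fell and 3 rose, against 24.4% and 18.4%. Moesin, Msn, which ties CD44 to actin, fell (-0.79, adjusted p = 0.00177), as did ezrin, Ezr (-0.47, adjusted p = 0.00431), and Cd74, the invariant chain that signals with CD44 (-0.70, adjusted p = 0.0130). Adam10, a protease that sheds CD44, had 35.8 ± 2.29 FPKM with CHIR99021 and 21.4 ± 1.13 FPKM with DMSO (0.72, adjusted p = 0.00176). The moesin relative radixin, Rdx, named after its value was seen, rose (0.43, adjusted p = 0.0166).

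Of 20 genes listed as other integrin chains, among them the integrin-like gene Itgbl1, 5 passed the limit on level. None of the 5 was called by limma, with or without the replicate block. At an unadjusted p under 0.05 there were 0 without the block, and with it 1 higher and 2 lower. The most abundant was Itgb3, the beta chain of the vitronectin receptor, at 21.0 ± 1.56 FPKM with CHIR99021 and 18.2 ± 1.45 FPKM with DMSO (adjusted p = 0.210, limma), and its partner Itgav had 3.63 ± 0.465 FPKM with CHIR99021 and 4.48 ± 0.219 FPKM with DMSO (adjusted p = 0.222). Without DMSO replicate 3, 17 genes of the 4 lists fell and 5 rose, without CHIR99021 replicate 3, 16 fell and 2 rose, and without replicate 1 of both groups, 18 fell and 2 rose. Without DMSO replicate 1, 23 fell and 3 rose. Over all tested genes, 1343 were called lower and 821 higher with all 6 libraries. These counts dropped to 813 and 520 without DMSO replicate 3, and to 751 and 335 without CHIR99021 replicate 3. They were 745 and 439 without replicate 1 of both groups, and 984 and 516 without only the DMSO library of that number.

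**Figure D5:**
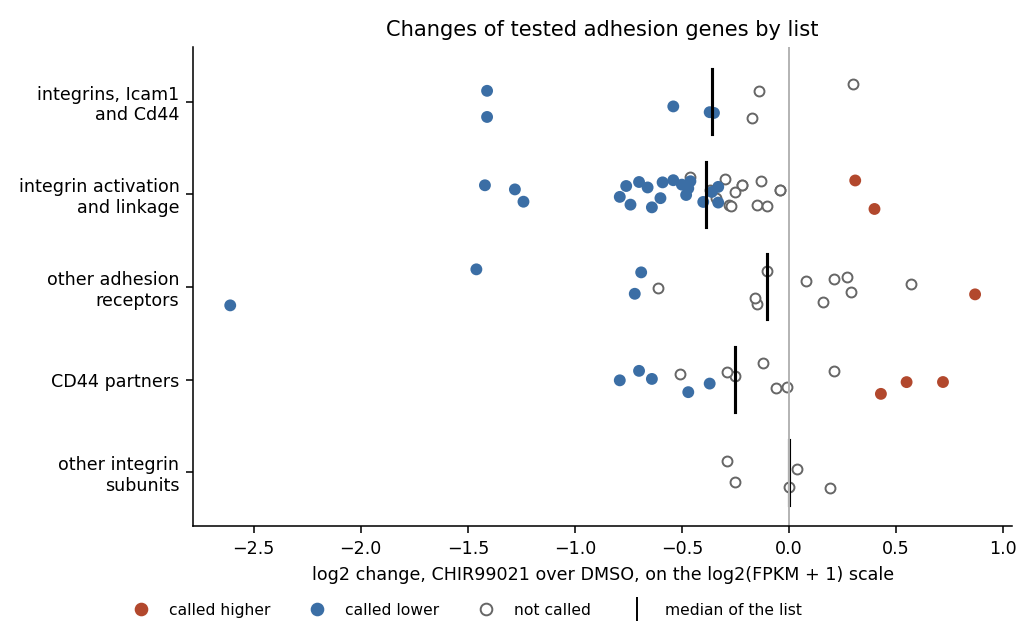
Log2 change of each tested gene, CHIR99021 over DMSO, for the 8 tested genes of the set and the 4 lists, with called genes filled (red higher, blue lower), others open and the median of each list as a bar. The medians are -0.36 for the set, -0.38 for integrin activation and linkage, -0.10 for other receptors, -0.25 for CD44 partners and 0.00 for other integrin chains; height within a row carries no value.

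The tested genes whose profile over the 6 libraries was most like that of each member were found by the root-mean-square difference between centred log2 values. For Itgam these were Tmem52 (difference 0.0644) and Lfng (0.106), a glycosyltransferase that modifies NOTCH. Lfng had 3.51 ± 0.544 FPKM with CHIR99021 and 10.6 ± 1.03 FPKM with DMSO. For Itgb7 they were Pycard, the inflammasome adaptor (0.0758), and Rnase6 (0.0797). Pycard had 16.2 ± 2.79 FPKM with CHIR99021 and 46.1 ± 11.1 FPKM with DMSO. The nearest were Mvk and Lipe for Itgb2 (0.0429 and 0.0436), Tmem168 and Zbtb46 for Icam1 (0.0349 and 0.0432), and Fam3c and Stat5b for Cd44 (0.0285 and 0.0299). For the genes that were not called they included Cdk5rap3 for Itgal (0.0306), and were Timm8a1 and Sdf2l1 for Itga4 (0.0307 and 0.0343), and Rnf14 and Samd10 for Itgb1 (0.0462 and 0.0498).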

How the data were processed

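The submitters' processing notes list the build mm10, Cufflinks 2.2.1, TopHat2 2.1.1 and cutadapt 1.12; libraries were made with a stranded mRNA kit. The authors deposited 1 table per library of gene FPKM with lower and upper confidence limits, per the file headers. No source used here gives the annotation or strand setting. Count models were left out because whole reads were recovered for only part of the genes. If an upper limit is the FPKM plus 2 times the FPKM over the square root of its fragments, 66.1% to 68.3% of entries between 0.5 and 20 fragments came out whole within 0.02, depending on the library; fragments so read cover counting error only.

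Values were log2(FPKM + 1), which understates the change of low genes, and folds of a gene are ratios of mean FPKM, while those of a ratio between chains come from mean log2 ratios. The test covered the 10096 genes that averaged at least 1 FPKM over 6 libraries, CHIR99021 over DMSO, with limma 3.58.1 in R 4.3.3 (variance trend, two-sided, Benjamini-Hochberg over all tested genes, threshold 0.05), after a test on simulated data. Ratios were tested with scipy 1.17.1. Same-numbered libraries of the groups deviated together (correlations 0.535, 0.490 and 0.517, against -0.352 to -0.14 for different numbers), so the numbers were taken to pair them. Only results given with the replicate block or by replicate number use this pairing. The other calls and the exact tests of ratios do not. Locations are from the deposited tables, with starts counted from 1.

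The members and lists were chosen with earlier results of these data known. Named genes are the members, for each list the 4 called genes of lowest adjusted p, and the 2 tested genes nearest to each member in profile, leaving out symbols that start with Gm or end in Rik. Alternatives were pseudocounts of 0.1 and 5, no limit on level, no trend, upper-quartile and quantile scaling, the replicate block, each library left out and, chosen after seeing the data, replicate 1 of both groups left out. Of the lists, Icap1 duplicated Itgb1bp1, and Cd58, Ly6g and Trac were not matched. Of the genes this rule names, 2 are not reported here.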

Additional observations from a re-analysis of the deposited data

How the results depend on the processing

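No ratio difference and no log2 change of a called member changed sign under any alternative run. Itgam kept its call in all 14 alternatives, with log2 changes from -1.89 to -0.69 (adjusted p 0.000561 to 0.0161, limma), and so did Itgb7, from -1.63 to -1.05 (0.000428 to 0.0209). Itgb2 kept it in 12 of 14 (0.00558 to 0.0581), Cd44 in 9 of 14 (0.00516 to 0.103) and Icam1 in 4 of 14 (0.00879 to 0.139). Itgal and Itgb1 were not called in any, and Itga4 was called only with the replicate block. Of the 8 tested members, 2 to 5 fell and 0 rose with a library left out, and 2 fell and 0 rose without replicate 1 of both groups. Of the list genes, 16 to 28 fell and 2 to 5 rose with a library left out, and 18 and 2 without replicate 1. Over all genes, 751 to 1301 fell and 335 to 732 rose with a library left out, and 745 and 439 without replicate 1. The replicate block gave 2466 lower and 1855 higher genes over all genes and 1 member higher, and it changed no other call of a member. Quantile scaling gave 1232 genes higher and 1174 lower, and upper-quartile scaling 1115 and 1174; calls that were higher made up 37.9% as deposited, 51.2% and 48.7% under these scalings, and the median log2 change of all tested genes was -0.04 as deposited, 0.03 and 0.01 under them. The ratio differences ranged from -1.63 to -0.90 for Itgb7 over Itgb1, 0.31 to 0.51 for Itgal over Itgb2 and 0.31 to 0.57 for Itga4 over Itgal, and exact tests of 3 against 3 libraries cannot go below 0.1, or 0.25 within pairs. The causes of these shifts were not tested. Depth limits Itgax, at 4 to 28 fragments per library, and Itgam with CHIR99021, at 32 to 90.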

Other observations

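Of 46 list genes below the limit on level, 4 had libraries that did not overlap, 3 lower and 1 higher with CHIR99021, and they are named because of these values. Of the list genes in this range with a value above 0, 10.3% did not overlap, against 9.79% of all such entries, so the 4 do not stand out. Itga8, an integrin alpha chain, had 0.0862, 0.0218 and 0 FPKM in CHIR99021 libraries and 0.323, 0.403 and 0.580 FPKM in DMSO libraries. Cdh5, the cadherin of endothelial cells, had 0.238, 0.242 and 0.190 FPKM in CHIR99021 libraries and 0.961, 0.628 and 0.732 FPKM in DMSO libraries. Selp, P-selectin, had 0.0573, 0 and 0.0423 FPKM in CHIR99021 libraries and 0.229, 0.128 and 0.0744 FPKM in DMSO libraries. Icam5, an LFA-1 ligand known from neurons, had 0.420, 0.422 and 0.423 FPKM in CHIR99021 libraries and 0.203, 0.217 and 0.306 FPKM in DMSO libraries. The 4 were not tested at the limit used.

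Of the 71 tested list genes, 7 (9.86%) ran in the order of the fibroblast marker sums in both groups, against 5.08% of all tested genes: Spp1, Mmp14, Actn1, Parva, F11r, Itga3 and Itga5. Spp1, the CD44 ligand osteopontin, had 26.2, 9.22 and 4.47 FPKM in CHIR99021 replicates 1, 2 and 3 and 38.8, 12.3 and 7.24 FPKM in DMSO replicates 1, 2 and 3. Mmp14, a membrane protease that cuts CD44, had 1.68, 0.717 and 0.237 FPKM with CHIR99021 and 2.75, 0.893 and 0.463 FPKM with DMSO. Cd44 itself did not follow this order, since replicate 3 was not the lowest of either group. The part of fibroblast RNA in these values was not tested.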
